A study of Mus musculus with 3 samples.

Results

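The genes described here are 9 vascular G protein-coupled receptor genes of the mouse, chosen by symbol: Aplnr, S1pr1, Calcrl, Ramp2, Gpr116, Eltd1, Cxcr4, Cxcr7 and Ednrb. They were looked up in 2 deposited gene lists that together hold 7612 genes, and 8 of the 9 were found in at least 1 of them. Ramp2 is the accessory protein of a receptor and not a receptor itself. Gpr116, Eltd1 and Cxcr7 are older symbols, and RefSeq now calls these genes Adgrf5, Adgrl4 and Ackr3.

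The lists come from DamID, in which a protein of interest is fused to a bacterial DNA adenine methyltransferase (DAM) that methylates adenine in GATC sites near the places where the protein sits, and methylated DNA is then cut with DpnI, amplified and sequenced. There were 3 samples, all of haemogenic endothelium grown from AinV18 mouse embryonic stem cells: GFI1:DAM, GFI1B:DAM and DAM alone, each carried as a doxycycline-inducible insert at the Hprt docking site. FLK1+ cells were isolated from embryoid bodies on day 3.25, and the TIE-2 and c-KIT compartment was sorted on day 2 of the culture that followed. Each sample combines 2 biological replicates and there is 1 deposited list for each fusion, so no value below has a replicate error and no difference between the fusions could be tested. All cells derive from a single embryonic stem cell line, and the fusions were expressed from an inserted gene. No expression was measured, so the cell type could not be checked against its markers.

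GFI1 and GFI1B are zinc-finger repressors that act in haemogenic endothelium, the endothelium from which blood cells emerge, and they recruit the histone demethylase LSD1. The receptors described here carry signals that shape blood vessels: apelin, sphingosine 1-phosphate, adrenomedullin, CXCL12 and endothelins are ligands for them. Receptors of this family span the membrane repeatedly and mostly signal through heterotrimeric G proteins. Beta-arrestins, GRK kinases and RGS proteins then turn this signalling off. GFI1 proteins are known to bind DNA with the core AATC.

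DamID can record a protein only where GATC sites lie. The bases just upstream of a transcription start show the sites of that stretch alone, not of the whole gene. RefSeq promoter windows on GRCm38.p6 were matched for 6 of the 9 genes, and 4 are shown, 5′ to 3′ on the strand of the gene with GATC in capitals: Calcrl, listed for both fusions, Ednrb, listed for GFI1B, and the pair of CXCL12 receptor genes, of which Cxcr7 was listed for GFI1 and Cxcr4 for neither fusion. Each holds the 250 bases before the start. The windows are chr2:84425267-84425516 (minus strand) for Calcrl, chr14:103843702-103843951 (minus) for Ednrb, chr1:90203730-90203979 (plus) for Cxcr7 and chr1:128592300-128592549 (minus) for Cxcr4.
Calcrl: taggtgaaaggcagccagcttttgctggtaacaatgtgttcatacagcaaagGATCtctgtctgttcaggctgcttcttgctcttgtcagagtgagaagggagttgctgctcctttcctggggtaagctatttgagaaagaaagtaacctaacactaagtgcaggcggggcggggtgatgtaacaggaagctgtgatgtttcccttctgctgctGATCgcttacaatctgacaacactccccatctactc
Ednrb: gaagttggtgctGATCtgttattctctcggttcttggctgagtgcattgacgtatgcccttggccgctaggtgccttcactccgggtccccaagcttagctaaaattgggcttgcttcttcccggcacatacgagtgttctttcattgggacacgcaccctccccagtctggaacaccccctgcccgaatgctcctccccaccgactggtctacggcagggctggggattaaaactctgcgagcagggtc
Cxcr7: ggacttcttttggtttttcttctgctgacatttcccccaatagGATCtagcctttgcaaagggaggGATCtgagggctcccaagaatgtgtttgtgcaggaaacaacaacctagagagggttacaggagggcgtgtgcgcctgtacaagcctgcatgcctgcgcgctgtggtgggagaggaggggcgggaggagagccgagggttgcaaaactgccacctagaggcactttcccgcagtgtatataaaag
Cxcr4: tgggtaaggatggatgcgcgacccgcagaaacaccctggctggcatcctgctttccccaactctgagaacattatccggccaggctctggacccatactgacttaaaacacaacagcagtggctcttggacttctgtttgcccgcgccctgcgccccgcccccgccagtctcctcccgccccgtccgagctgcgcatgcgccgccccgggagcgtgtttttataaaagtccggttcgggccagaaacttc
The Calcrl and Cxcr7 windows held 2 GATC sites each, the Ednrb window 1 and the Cxcr4 window 0. The Eltd1 window, not shown, also held 1. Both windows of Gpr116, which has 2 start sites and was listed for both fusions, held 0. Of 32851 promoter windows of the same length 41.9% held at least 1 GATC and 10.9% at least 2, so a window without the site was common. The core AATC, searched on both strands, was found 3 times in each Gpr116 window, once in those of Calcrl, Ednrb and Eltd1, and not in those of Cxcr7 or Cxcr4. At least 1 such match occurred in 69.0% of all windows, and no match in these windows overlapped a GATC. The lists use mm9 coordinates, another build, so whether a listed interval covers any of these windows was not determined.

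Each fusion marked 6 of the 9 receptor genes, and 4 were marked by both. Aplnr, S1pr1, Calcrl and Gpr116 were listed for both, Ramp2 and Cxcr7 for GFI1 alone, Eltd1 and Ednrb for GFI1B alone, and Cxcr4 for neither. The GFI1 list held 18.4% of 21900 protein-coding genes, the GFI1B list 19.1%, both lists 11.0% and at least 1 list 26.5%. The share of members was 66.7% for each fusion, 44.4% for both and 88.9% for at least 1. The members were proposed with these lists already known, so their excess over other genes is a description of the 9 and carries no test. A gene without a row is not listed, which does not show that it was unmarked.

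**Figure D1:**
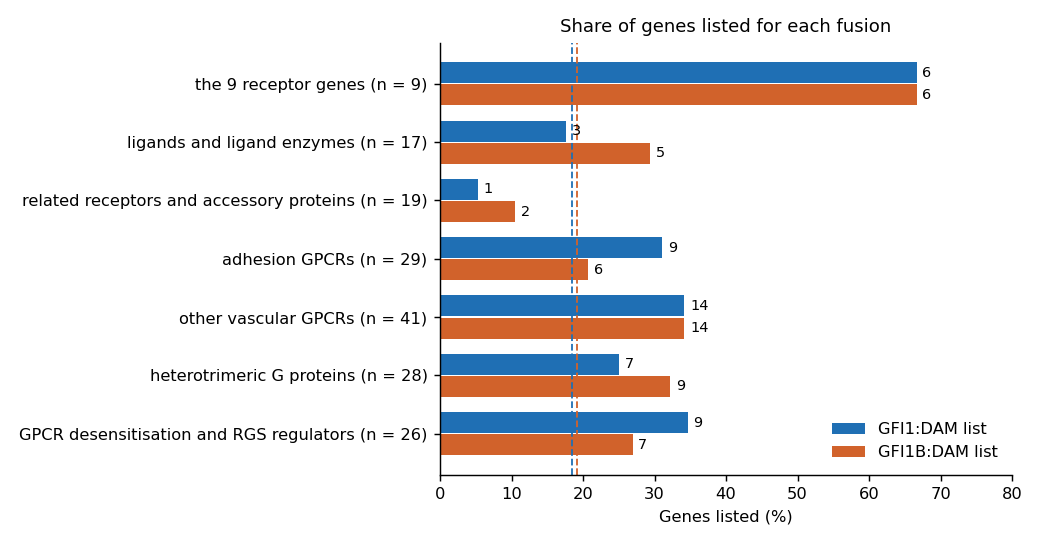
Bars give the percentage of genes listed for GFI1:DAM (blue) and GFI1B:DAM (orange) among the 9 receptor genes and in 6 lists of related genes, with the number listed beside each bar. Dashed lines mark the share of all protein-coding genes, 18.4% for GFI1 and 19.1% for GFI1B, and the 9 receptor genes stand at 66.7% for both.

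Long genes were listed more often than short ones, and the members differ widely in length. Among protein-coding genes ordered by RefSeq length into 10 equal groups, Ramp2 (1.92 kb), Aplnr (3.56 kb) and Cxcr4 (4.10 kb) fall in decile 2, where the GFI1 list held 6.21% of genes and the GFI1B list 7.58%. S1pr1 (4.62 kb) falls in decile 3, with 7.72% and 8.49%. Only 2.92% and 3.47% of the genes in these deciles were listed for both fusions, as Aplnr and S1pr1 were. Cxcr7 (11.7 kb) is in decile 5, where 12.0% were listed for GFI1, and Ednrb (29.9 kb) in decile 7, where 19.6% were listed for GFI1B. Calcrl (94.8 kb), Gpr116 (99.2 kb) and Eltd1 (107 kb) are in decile 9, where the GFI1 list held 36.2%, the GFI1B list 37.6% and both lists 24.1%. For their length, the listing of Aplnr, S1pr1 and Ramp2 was therefore less common than that of Calcrl, Gpr116 and Eltd1. Cxcr4, also short, was in neither list. The members were chosen with the lists known, so this describes them and carries no test.

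**Figure D2:**
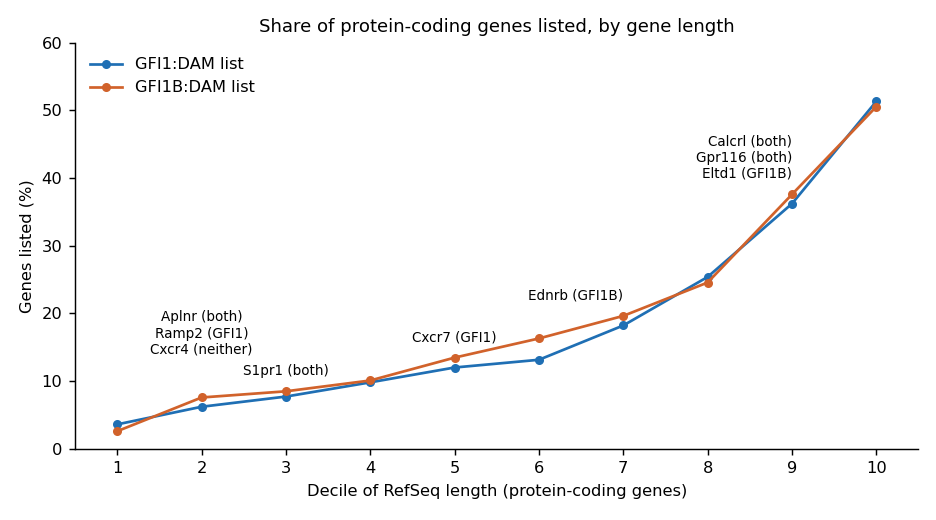
Lines give the percentage of protein-coding genes listed (vertical axis) in each decile of RefSeq gene length (horizontal axis) for GFI1:DAM and GFI1B:DAM, and each receptor gene is written above its decile with the fusions it was listed for. The share rises from 3.61% and 2.60% in decile 1 to 51.3% and 50.5% in decile 10, while receptor genes listed for both fusions stand in deciles 2, 3 and 9.

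S1pr1 encodes the receptor for sphingosine 1-phosphate, a lipid of blood plasma that stabilises vessels. It had the highest read density of the 4 genes listed for both fusions, in both lists. Density is the deposited number of reads per kb of interval. It is not scaled between lists, so it was read as a rank within a list. S1pr1 stood at 66.8 reads per kb in the GFI1 list, above 75.9% of its 5238 rows, and at 73.3 in the GFI1B list, above 74.9% of its 5327 rows. Its rank by density was thus nearly the same for each fusion. By read number S1pr1 stood higher, with 414 reads for GFI1 and 711 for GFI1B, above 97.4% and 98.4% of rows.

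The S1pr1 intervals on chromosome 3 form a narrow and a wide block in each list. For GFI1 they ran from 115390093 to 115390893 (801 bp) and from 115397243 to 115402643 (5401 bp). For GFI1B they ran from 115389526 to 115391426 (1901 bp) and from 115397426 to 115405226 (7801 bp). The GFI1 narrow block lay wholly inside its GFI1B counterpart, with midpoints 17 bp apart. The wide blocks shared 5218 bp, and the GFI1B block reached 2583 bp further at its upper end. Interval widths fall on a grid of 50 bp steps in both lists, so offsets of that order are not resolved. In width the 7801 bp block exceeded 99.9% of all GFI1B intervals and the 5401 bp block 99.7% of all GFI1 intervals. Both blocks were wider than the gene itself. The summed S1pr1 intervals, 6202 bp for GFI1 and 9702 bp for GFI1B, were the longest of the 169 and 186 listed genes of decile 3, whose medians were 1301 and 1426 bp.

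Aplnr encodes the apelin receptor, which guides mesodermal cells and sprouting vessels. Its density was 50.6 reads per kb in the GFI1 list, above 53.9% of rows, and 64.8 in the GFI1B list, above 66.4%. Both values lie above the medians of their lists, 48.7 and 53.6. By read number summed over its intervals it stood much higher, with 357 reads for GFI1 and 483 for GFI1B, above 96.7% and 96.2% of rows.

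Aplnr had 3 intervals on chromosome 2 in each list, of which 2 coincided. The wide one ran from 84978318 to 84983418 (5101 bp) for GFI1 and from 84978272 to 84982522 (4251 bp) for GFI1B, with 4205 bp in common. The last one ran from 84985968 to 84986618 (651 bp) for GFI1, inside the GFI1B interval from 84985122 to 84986772 (1651 bp). The remaining intervals did not meet: 84963068 to 84964368 was listed for GFI1 and 84973472 to 84975022 for GFI1B, 9.10 kb apart. The wide GFI1 interval exceeded 99.7% of GFI1 intervals in width, and the wide GFI1B interval 98.2% of GFI1B intervals. The summed length was 7053 bp for GFI1 and 7453 bp for GFI1B, that is 1.98 and 2.09 times the RefSeq length of the gene. Of the listed genes of decile 2, 2 of 136 had a longer sum for GFI1 and 1 of 166 for GFI1B.

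**Figure D3:**
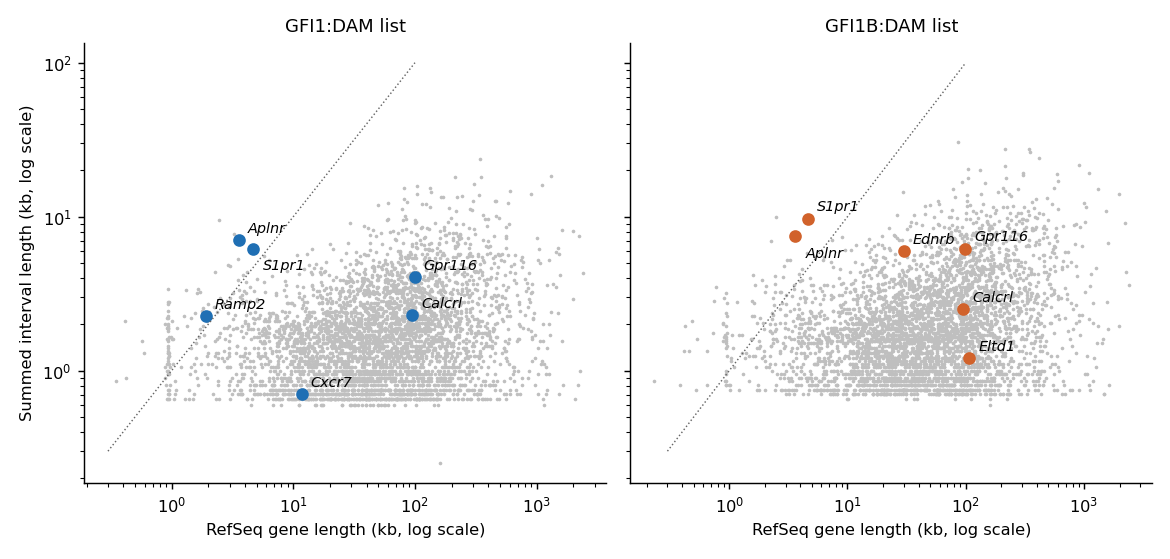
Each point is a listed protein-coding gene, with RefSeq gene length on the horizontal axis and the summed length of its intervals on the vertical axis, both in kb on log scales, for GFI1:DAM (left) and GFI1B:DAM (right). Coloured points are the receptor genes and the dotted line marks equal lengths. Aplnr and S1pr1 lie above the line in both panels and Ramp2 in the GFI1 panel, whereas Cxcr7 lies near the lower edge at 701 bp.

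Summed intervals longer than the gene were rare: 2.06% of listed protein-coding genes for GFI1 and 1.83% for GFI1B. They were found for 3 of the 6 members listed for GFI1 and 2 of the 6 listed for GFI1B. In decile 2 such genes numbered 26 of 136 for GFI1 and 32 of 166 for GFI1B, but in decile 3, which holds S1pr1, only 2 of 169 and 2 of 186. The sources used here do not give the rule by which the authors assigned intervals to genes. Exon, intron and UTR positions on mm9 were not used here.

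Calcrl and Ramp2 encode parts of the same receptor: the calcitonin receptor-like receptor responds to adrenomedullin when it is paired with RAMP2, and lymphatic and blood vessels need both. Calcrl was listed for both fusions. It stood at 36.1 reads per kb in the GFI1 list, above 18.3% of rows, and at 47.2 for GFI1B, above 37.7%. By read number it stood higher, above 55.1% and 60.6%. Its GFI1 interval ran from 84264618 to 84266918 on chromosome 2 (2301 bp). The GFI1B interval there ran from 84264622 to 84265972 (1351 bp), with a start 4 bp away, which is below the 50 bp step. GFI1B had another at 84233422 to 84234572, 30.0 kb from any GFI1 interval. Ramp2 was listed for GFI1 alone, by an interval of 2251 bp on chromosome 11 from 101111963 to 101114213. Its 67.97 reads per kb exceeded 76.98% of the list. The nearest GFI1B interval lay 18.3 kb away and was listed under Ezh1, which encodes a histone methyltransferase and is the neighbour of Ramp2 in RefSeq. The receptor and its partner thus differed in which lists held them.

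Gpr116 and Eltd1 encode adhesion receptors of endothelium with long extracellular parts. Gpr116 had 4 intervals in each list, where 3.95% of GFI1 genes and 4.79% of GFI1B genes of any length had 4 or more. Of the listed genes of decile 9, 96 of 794 for GFI1 and 59 of 825 for GFI1B had longer summed intervals than Gpr116. Its density was 46.4 reads per kb in the GFI1 list, above 44.4% of rows, and 42.9 for GFI1B, above 28.2%. By read number it stood above 87.1% and 87.3%. The outer intervals on chromosome 17 coincided. At the lower end, 43500347 to 43501497 for GFI1 shared 1045 bp with 43500191 to 43501391 for GFI1B. At the upper end, 43581047 to 43581747 for GFI1 lay inside 43580991 to 43581991 for GFI1B. The inner intervals did not meet: those of GFI1 were at 43512697 to 43513347 and 43551497 to 43553047, and those of GFI1B at 43529691 to 43531491 and 43542791 to 43544991. From first to last the intervals spanned 81.4 kb for GFI1 and 81.8 kb for GFI1B, beside a gene length of 99.2 kb.

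Eltd1 was listed for GFI1B alone, by 1 interval of 1201 bp on chromosome 3 from 151086926 to 151088126. It stood at 62.5 reads per kb, above 63.5% of rows, and by read number (75 reads) above 38.5%. The nearest GFI1 interval lay 411 kb away and was listed under Ptgfr, which encodes the receptor for prostaglandin F2alpha. Of the members listed for GFI1B it had the shortest marked length.

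Cxcr4 and Cxcr7 encode the receptors for the chemokine CXCL12. CXCR4 signals through G proteins, and CXCR7 acts mainly as a scavenger that takes CXCL12 up. Cxcr7 had the highest density of any member in the GFI1 list, 89.9 reads per kb, above 89.0% of rows. That value rests on 63 reads in a single interval of 701 bp on chromosome 1 (92100784 to 92101484), wider than only 7.76% of GFI1 intervals, and by read number Cxcr7 stood above only 40.0% of rows. The nearest GFI1B interval, listed under its neighbour Iqca, lay 24.95 kb away. Cxcr4 had no row. Of the 6 protein-coding genes nearest to it in RefSeq order, Dars, a tRNA synthetase gene, was in the GFI1 list at 81.0 reads per kb, and none was in the GFI1B list.

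Ednrb encodes the endothelin receptor type B, which on endothelium drives nitric oxide release. It was listed for GFI1B alone, by 4 intervals on chromosome 14 that spanned 55.4 kb: 104191863 to 104192713, 104228063 to 104230313, 104234313 to 104235613 and 104245613 to 104247213. Its density was the lowest of the members in that list, 39.5 reads per kb, above 21.6% of rows, while by read number (237 reads) it stood above 84.6%. Its summed intervals of 6004 bp were among the longest of decile 7, where 11 of 431 listed genes had more.

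**Figure D4:**
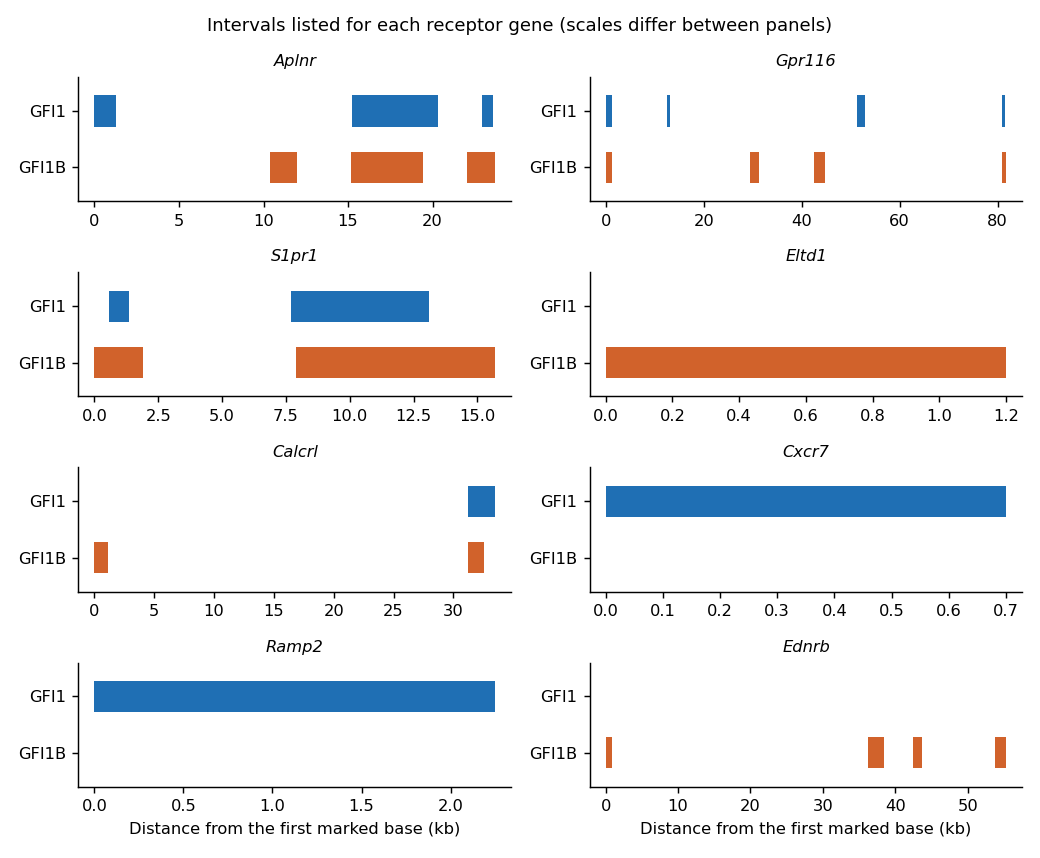
Each panel shows the intervals listed for 1 receptor gene, GFI1:DAM above in blue and GFI1B:DAM below in orange, against the distance in kb from the first marked base, with a different scale in each panel. The wide blocks of Aplnr and S1pr1 and the outer intervals of Gpr116 coincide between the lists, and Ramp2, Eltd1, Cxcr7 and Ednrb have intervals in 1 list.

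By position, 7 of the 12 member intervals for GFI1 (58.3%) overlapped a GFI1B interval by at least 1 bp, against 39.2% of all GFI1 intervals. For GFI1B 7 of 16 (43.8%) overlapped a GFI1 interval, against 36.9% of all. All 7 overlaps lay in the 4 genes listed for both fusions, each of which had at least 1, and 77.5% of the 2953 genes in both lists had 1 or more. An overlapping pair of member intervals had a median of 65.4% of its joint length in common, from 39.4% (the last Aplnr interval) to 81.7% (its wide interval). The median over all 2815 overlapping pairs was 67.3%. Taken over all intervals of a gene, the marked length in common was 60.9% for S1pr1, 50.3% for Aplnr, 39.1% for Calcrl and 20.5% for Gpr116, beside a median of 33.9% for all genes in both lists. Intervals of 3000 bp or wider made up 3.84% of all GFI1 intervals and 6.19% of all GFI1B intervals. Of the member intervals 2 of 12 and 2 of 16 were that wide, the wide blocks of S1pr1 and Aplnr. A single interval was held by 3 of 6 members for GFI1 and 1 of 6 for GFI1B, where 75.0% and 71.9% of all rows had 1. No member interval in either list was listed under another gene, while 3.89% of all GFI1 intervals and 5.02% of all GFI1B intervals were.

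In density the listed members were spread over most of each list. For GFI1 the order from high to low was Cxcr7, Ramp2, S1pr1, Aplnr, Gpr116 and Calcrl, with a median of 58.7 reads per kb and 4 of 6 above the median of all rows. For GFI1B it was S1pr1, Aplnr, Eltd1, Calcrl, Gpr116 and Ednrb, with a median of 54.8 and 3 of 6 above. With no replicate spread, no neighbours in either order can be said to differ. Among the genes listed for both, Calcrl stood 19.4 percentile points and Aplnr 12.4 points higher in the GFI1B list, Gpr116 stood 16.2 points higher in the GFI1 list, and S1pr1 differed by 0.99 points. Ranked by read number, Aplnr stood slightly higher in the GFI1 list (96.7% against 96.2% of rows) and Gpr116 slightly higher in the GFI1B list (87.1% against 87.3%), the opposite order, and the gap for Calcrl narrowed to that between 55.1% and 60.6%. The genes nearest to each in percentile over the 2 lists were Ywhae for S1pr1 (66.8 reads per kb by GFI1, 73.5 by GFI1B), Gosr2 for Aplnr (51.4 and 64.5), Zwint for Calcrl (35.3 and 47.2) and Syne2 for Gpr116 (46.2 and 42.7).

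**Figure D5:**
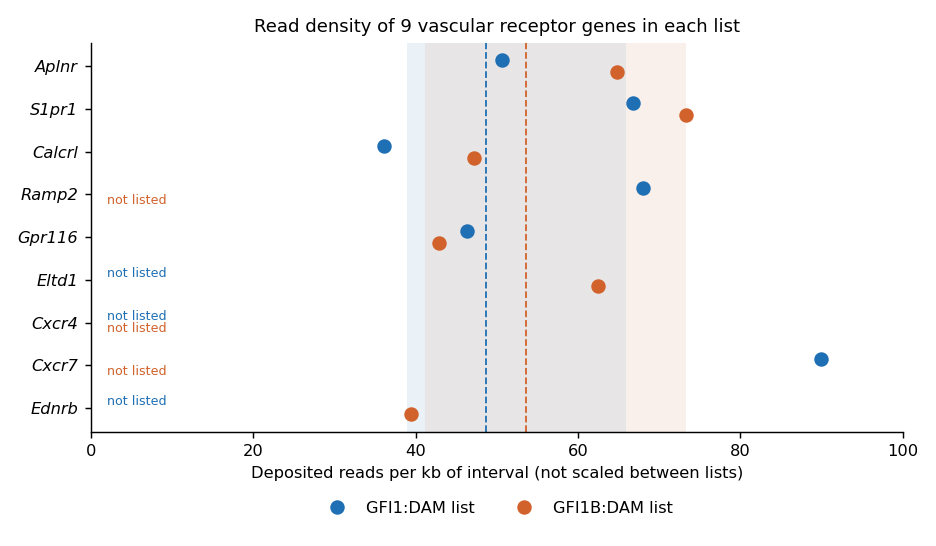
Points give the deposited reads per kb of interval (horizontal axis) of each receptor gene in the GFI1:DAM list (blue) and the GFI1B:DAM list (orange), which are not scaled to each other. Dashed lines mark the median of all rows of each list, 48.7 and 53.6, and shaded bands the quartiles. Cxcr7 at 89.9 lies farthest to the right and Calcrl at 36.1 farthest to the left.

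Among the ligands and the enzymes that make or carry them, the GFI1 list held 3 of 17 genes (17.6%, beside 18.4% of all protein-coding genes) and the GFI1B list 5 (29.4%, beside 19.1%), all 3 of the former among the latter. Sphk1, the kinase that makes sphingosine 1-phosphate, had a density of 44.6 reads per kb by GFI1 and 51.3 by GFI1B. Spns2, the exporter of that lipid from endothelium, stood at 34.3 and 53.8. Apln, which encodes apelin and lies on chromosome X, stood near the bottom of both lists at 29.6 and 28.9. The other listed genes of that chromosome in the related lists also ranked low. These were Lpar4 (29.2 and 28.6), Gpr112 (24.1 for GFI1 alone) and Cysltr1 (39.1 for GFI1B alone). Whether the chromosome bears on density was not tested. Sphk1, Spns2 and Apln each had an interval that overlapped between the lists, and Apln had a further GFI1B interval that did not. Edn1, which encodes endothelin 1, was in the GFI1B list alone (47.8), and so was Ece2, an endothelin-converting enzyme gene, at 69.0 by an interval also listed under Alg3. Apela, Adm, Cxcl12, Edn3, Ece1 and Sphk2 were in neither list.

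Related receptors and accessory proteins were listed least, 1 of 19 by GFI1 and 2 by GFI1B. Ramp1, which with CALCRL forms the receptor for the peptide CGRP, was in the GFI1B list alone at 121 reads per kb, above 93.6% of rows, and Ramp3 in neither. Cxcr2, a neutrophil chemokine receptor gene, had intervals that ended at the same base on chromosome 1, 74215084 to 74216134 by GFI1 and 74215134 to 74216134 by GFI1B, at 44.7 and 67.9 reads per kb. None of the other S1P receptor genes was listed, nor was Ednra, the other endothelin receptor gene.

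Among 29 other adhesion receptor genes the GFI1 list held 9 (31.0%), the GFI1B list 6 (20.7%) and both lists 3 (10.3%). Of all protein-coding genes the lists held 18.4%, 19.1% and, in both, 11.0%. The shares for GFI1B and for both lists were thus near those of all genes. Gpr124, a receptor needed by brain endothelium, was listed for both at 31.0 and 42.3 reads per kb, with an interval on chromosome 8 in the GFI1B list (28197225 to 28205075, 7851 bp) that held the GFI1 interval of 3851 bp. Lphn2 had 6 intervals in each list (38.1 and 47.1), of which 3 coincided, and Lphn3 1 in each (33.9 and 44.8). Gpr98 (119), Celsr1 (54.2), Gpr97 (49.3) and Bai1 (39.9) were named by rank in the GFI1 list and were not listed for GFI1B. The Gpr98 interval was also listed under 9330111N05Rik. Gpr110, which lies beside Gpr116, was listed for GFI1B alone at 51.4.

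Each list held 14 of 41 other vascular receptor genes (34.1%), and 8 (19.5%) were in both. Beside these stand 18.4% of all protein-coding genes for GFI1, 19.1% for GFI1B and 11.0% for both. Lpar6, a lysophosphatidic acid receptor gene inside an intron of Rb1, had the widest intervals described here, 9551 bp for GFI1 (73636013 to 73645563 on chromosome 14) and 9901 bp for GFI1B, at 67.9 and 99.2 reads per kb. Both were listed under Rb1 as well. The thrombin receptor gene F2r was listed for GFI1 alone at 69.2 and its relative F2rl1 for both (57.1 and 66.4). The adrenergic receptor gene Adrb1 stood at 82.3 and 77.7, Adra1a at 109 for GFI1 alone, and the prostaglandin receptor gene Ptger3 at 64.9 for GFI1B alone.

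Downstream of the receptors, the GFI1 list held 7 of 28 G protein genes (25%), the GFI1B list 9 (32.1%), and both lists 6 (21.4%). Beside these stand 18.4%, 19.1% and 11.0% of all protein-coding genes. Gng2 stood at 72.7 and 51.6 reads per kb, Gng12 at 45.0 and 103, and Gnb1 at 38.2 and 51.4. Gnaq, which couples receptors to phospholipase C, had 5 intervals for GFI1 and 2 for GFI1B (43.9 and 45.4). Gna12 was also listed for both (43.9 and 32.0), and Gnb5 for GFI1 alone (44.0). The 2 intervals of Gng12 did not overlap.

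Of 26 genes of arrestins, GRK kinases and RGS proteins the GFI1 list held 9 (34.6%) and the GFI1B list 7 (26.9%). All 7 were in both lists. For all protein-coding genes the shares were 18.4%, 19.1% and, in both lists, 11.0%. Rgs7 stood at 73.7 and 71.5 reads per kb, Rgs12 at 47.9 and 63.3, Rgs3 at 39.98 and 57.8, Grk5 at 35.7 and 56.1 and Grk4 at 43.1 and 45.8. Rgs20 was listed for GFI1 alone (50.4). The Grk5 interval for GFI1 and 1 of its 3 for GFI1B were also listed under 5830428H23Rik.

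Over all 6 lists, 43 of 160 genes (26.9%) were listed for each fusion and 28 (17.5%) for both, beside 18.4%, 19.1% and 11.0% of all protein-coding genes. The members, at 66.7% for each fusion, stood above all 6. Gene length was not taken into account in the shares of the 6 lists. The listed genes of the 6 lists ranked low in density, with a median at the 35.99 percentile of the GFI1 list and the 36.4 percentile of the GFI1B list. Of the 28 genes in both lists 24 (85.7%) had overlapping intervals, beside 77.5% of all genes in both lists.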

How the data were processed

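DamID was read from 2 deposited gene lists, 1 each for GFI1:DAM and GFI1B:DAM, matched to samples by worksheet name. Values of DAM alone were not analysed here. Per the file headers, the authors ran BayesPeak, and for the GFI1B list also a method written SS at threshold 0.05, after merging lanes and subtracting control reads. The header of the GFI1 list names BayesPeak only, but the intervals of both lists are labelled SS. Whether both lists were called with the same settings is therefore not stated. The sources used here do not say whether control reads were subtracted from the GFI1 list, and they name no aligner. Per the submitters' processing notes coordinates are on mm9.

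The authors' deposited read number of a gene is a score here rather than a count, because control reads may have been taken off. The deposited signal is reads per kb, recomputed here from read number and summed interval length within 0.0050. Library depth is unknown, so no interval of counting error is given.

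The members and all gene lists were chosen with earlier results of these data known. Symbols were matched to 49997 RefSeq genes of GRCm38.p6, used for names, order, gene length and promoter sequence only. Of rows, 4633 and 4745 matched. Of the 160 genes of the 6 related lists, 159 matched. Percentile is the percentage of rows with a lower value. Named genes were all members, up to 4 genes per related list and fusion with the most reads per kb, fixed ligands and partners, genes nearest in percentile, and neighbours. Python 3.11.15, pandas 2.3.3 and numpy 2.4.6 were used. The overlap and rank functions were tested on simulated data. Alternatives were stricter rows, interval sharing, width and overlap rules.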

Additional observations from a re-analysis of the deposited data

How the results depend on the processing

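No value could be checked against replicates, since each list pools 2 biological replicates, and no paired analysis was possible because each fusion has a single list. Keeping only rows at or above the median reads per kb of their list left 4 of 9 members for GFI1, 3 for GFI1B and 2 for both (S1pr1 and Aplnr), 11, 14 and 4 of the 160 related genes, and 4 overlapping GFI1 intervals of the 7 that remained. Fewer rows enter by construction. The share of all protein-coding genes kept by each stricter rule is not given, so these gene counts have no background beside them. Requiring an interval listed under no other gene kept all member counts. Requiring an interval of 1 kb or wider left out Cxcr7 for GFI1 and changed no other member count. An overlap of at least 50% of both intervals left 5 of 12. Overlap of 50% of the shorter interval, or a gap of up to 1 kb, left 7. Ranking by read number moved all 12 member percentiles. Ranking among protein-coding rows moved 2 of 12 beyond a 95% binomial interval, both in the GFI1 list. They were S1pr1 (from 75.9 to 77.4) and Ramp2 (from 77.0 to 78.5). That interval served as a cutoff only, because a percentile is a rank among all rows and the interval measures no error of these data.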

Other observations

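Genes beside the receptors were looked at by their order in RefSeq, after the lists were seen. Of the 18 immediate protein-coding neighbours of the 9 genes the GFI1 list held 4 (22.2%) and the GFI1B list 7 (38.9%), beside 18.4% and 19.1% of all protein-coding genes. Within 3 genes on either side the lists held 12 (22.2%) and 17 (31.5%) of 54. Beside Calcrl, Tfpi, which encodes an endothelial inhibitor of coagulation, was in the GFI1B list alone at 63.0 reads per kb, and 3 genes to the other side Itgav, the integrin alpha V gene, stood at 46.2 for GFI1 and 105 for GFI1B. Slain1, beside Ednrb, was listed for GFI1B alone at 57.1, as Ednrb was. Lrrc55, beside Aplnr, was listed for both (56.1 and 45.7), and so was Iqca, beside Cxcr7 (37.6 and 45.3). Ptgfr, 3 genes from Eltd1 and itself a G protein-coupled receptor gene, stood at 47.2 for GFI1 and 78.1 for GFI1B. Neither immediate neighbour of S1pr1 was listed for either fusion, and the nearest interval of another gene in the same list was 293 kb from its wide GFI1 block and 302 kb from its wide GFI1B block, under Slc30a7 in both lists.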
